A study of Danio rerio with 2 samples.

Results

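Melanotropes are the endocrine cells of the intermediate lobe of the pituitary. They cleave proopiomelanocortin (POMC), the precursor that corticotropes cut to adrenocorticotropic hormone, further to alpha-melanocyte-stimulating hormone, with the convertases PC1 and PC2 acting in turn. In fish this hormone takes part in the darkening of the skin during background adaptation, and hypothalamic dopamine holds back its release. The cells described here are the 222 that the authors annotated as melanotropes among 6988 cells of zebrafish pituitary, which were placed in 14 types by clustering and marker genes. Of the melanotropes, 85 came from the wild-type (WT) library and 137 from the gnrh3-/- library. The WT fish were gnrh3+/+ and the gnrh3-/- fish lacked the gene for the hypophysiotropic gonadotropin-releasing hormone of this species. All fish were females aged 3 months, and per the methods of the study they were chosen as spawning fish. The pituitaries of 5 fish of 1 genotype were pooled, dissociated and run as a single droplet library with 3' counting of unique molecular identifiers (UMIs).

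With 1 library per genotype there was no biological replicate, so no test between genotypes was possible and intervals in the text cover counting error only. Since the clusters were built from the expression of these genes, ratios between cell types describe the melanotropes and test nothing. Expression is given as a level, which is the UMI count of a gene summed over all cells of a type from 1 library and scaled to 10000 UMIs. The melanotropes held 725567 UMIs in WT and 673461 in gnrh3-/-, with a median of 8100 UMIs (1183 to 18946) and 4434 UMIs (1578 to 16663) per cell. A gene with 3 UMIs thus had a level of 0.0413 in WT and 0.0445 in gnrh3-/-. Corticotropes, the other pomca type, numbered 186 and 274 cells with a median of 6480.5 and 4230.5 UMIs, and the remaining 12 types, called the non-pomca types below, held 1923 and 4383 cells. A single cell barcode occurred in both libraries, and it belonged to a melanotrope in gnrh3-/- but to another type in WT. The deleted gene could not check the genotype labels, because gnrh3 had 1 UMI in all cells of each library and 0 UMIs in melanotropes of both. Of the markers of endothelial, immune, red blood and pigment cells, the melanotropes held summed levels from 0 to 0.0689 for the 4 lists in the 2 libraries, with all 6 red blood cell markers at 0 in both. The 10 neurohypophysial and glial genes summed to more, 1.97 in WT and 1.81 in gnrh3-/- melanotropes, against 2.71 and 2.22 in corticotropes. Transcripts of other pituitary hormones summed to a level of 6.73 in WT and 170.1 in gnrh3-/- melanotropes. Of the melanotropes, 7 gnrh3-/- cells and 0 WT cells carried more than 5% of their UMIs in a single such gene, the limit used below. Without such cells in any type, 86 genes were at least 4-fold higher and 97 lower in melanotropes than in the non-pomca types, and 61 and 211 than in corticotropes, close to the numbers with all cells given below.

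Melanotropes made up 3.87% of the WT cells (95% exact binomial interval 3.11 to 4.77) and 2.86% of the gnrh3-/- cells (2.40 to 3.37). These 2 intervals overlapped, which does not show that the shares were alike. Corticotropes made up 8.48% of the WT cells (7.35 to 9.72) and 5.72% of the gnrh3-/- cells (5.08 to 6.41). Dissociation and capture can change the share of a cell type, and their part was not tested.

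The label rests on clustering and on pomca (ENSDARG00000043135), so pomca is given here as a description. The second marker, drd2a (ENSDARG00000056926), encodes a D2-type dopamine receptor. For pomca the WT melanotropes had a level of 4051 and the gnrh3-/- melanotropes 3829, where corticotropes had 2205 and 2298 and the non-pomca types 4.43 and 13.3. Each of the 222 melanotropes held pomca UMIs, and single cells ranged from a level of 1877 to 7799 in WT and from 845 to 6109 in gnrh3-/-. Corticotropes reached 3602 and 4206, so that the highest corticotropes lay within the range of the melanotropes and pomca by itself did not separate the 2 types. On the log2 scale, pomca was 9.84 (9.81 to 9.87) above the non-pomca types in WT and 8.17 (8.16 to 8.19) in gnrh3-/-. These pomca ratios became 11.72 and 9.47 when cells of any type with over 5% of foreign hormone were left out, and 8.01 and 7.38 with the 12 types weighted equally.

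The level of drd2a in melanotropes was 0.758 in WT (55 UMIs) and 0.505 in gnrh3-/- (34 UMIs). In corticotropes drd2a stood at 0.118 and 0.0964, and in the non-pomca types at 0.110 and 0.118. The receptor transcript was therefore 6.89-fold and 4.27-fold higher in melanotropes than in the non-pomca types. It did not mark melanotropes alone, since LH gonadotropes had a drd2a level of 0.394 in WT and 0.545 in gnrh3-/-. Melanotropes took place 1 of 13 types for drd2a in WT and place 2 in gnrh3-/-, where their interval of 0.3496 to 0.705 held the level of the LH gonadotropes. With every cell of at least 2000 UMIs reduced to 2000, drd2a was seen in 13.99% of WT and 10.0% of gnrh3-/- melanotropes, against 2.38% and 2.10% of corticotropes.

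A gene was counted in a comparison when the mean of the 2 levels compared reached 0.25 in each library, and a gene was called when it was at least 4-fold apart in the same direction in both. Against the non-pomca types, 79 of 2481 genes were at least 4-fold higher in melanotropes (3.18%) and 92 were at least 4-fold lower (3.71%). The median gene differed by -0.03 on the log2 scale in WT and by -0.01 in gnrh3-/-. The middle 90% of genes lay from -2.15 to 1.66 and from -1.70 to 1.63. When the hormone genes were taken out of the total, the medians over the genes counted in each library shifted to 0.21 and 0.19, and the numbers called became 118 and 119. With means of per-cell levels 59 genes were called higher and 139 lower, and with the 12 types weighted equally 63 and 208.

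Ranked by the lower end of the counting interval in the library where it was lower, the leading gene was oacyl (ENSDARG00000075191), whose name denotes an O-acyltransferase-like protein. Its level was 59.8 in WT and 52.2 in gnrh3-/- melanotropes. In corticotropes oacyl stood at 0.0314 and 0.0193, and in the non-pomca types at 0.0801 and 0.129. The oacyl ratio to the non-pomca types was 9.54 (9.32 to 9.78) and 8.66 (8.51 to 8.82) on the log2 scale, and 10.30 and 10.17 without cells of over 5% foreign hormone. The oacyl ratio to corticotropes was 10.89 (9.54 to 12.77) and 11.40 (9.85 to 13.68). All melanotropes of both libraries held oacyl UMIs, with single-cell levels from 24.7 to 123 in WT and from 5.40 to 128 in gnrh3-/-. Among the corticotropes, 3 of 186 and 3 of 274 cells held any oacyl, at levels up to 4.68 and 6.66. The next type, somatolactotropes alpha, had oacyl levels of 0.784 and 0.813.

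The lowest pomca and oacyl levels of any melanotrope were also used to look for cells placed elsewhere, a limit chosen after the values were seen. In WT, 1 of the 2109 other cells reached both limits and it was no corticotrope. In gnrh3-/-, where both limits were lower, 9 of 4657 other cells did, among them 1 corticotrope.

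Some genes of POMC processing differed between the 2 pomca types. The convertase PC2, which trims adrenocorticotropic hormone to the melanocyte-stimulating peptides, is encoded by pcsk2 (ENSDARG00000019451). The level of pcsk2 was 3.34 in WT (242 UMIs) and 3.56 in gnrh3-/- melanotropes (240 UMIs), and 0.0115 and 0.0106 in the non-pomca types. Corticotropes had no pcsk2 UMI in either library, which placed melanotropes at least 141-fold and 185-fold higher, taking 3 UMIs per library as the floor. The convertase PC1 showed the opposite order. Its gene pcsk1 had a level of 0.289 and 0.431 in melanotropes and of 1.13 and 0.861 in corticotropes. The level of scg5, whose product 7B2 is the chaperone of PC2, was 25.6 and 16.7 in melanotropes, 16.7 and 9.28 in corticotropes and 5.13 and 2.86 in the non-pomca types. Somatolactotropes alpha exceeded melanotropes for scg5, at 29.5 and 19.4. The furin gene furinb had 2 and 4 UMIs in melanotropes, a level of 0.0276 and 0.0594, against 1.23 and 1.09 in corticotropes. The furin gene furina did not share this gap. In WT it was 1.24-fold higher in corticotropes and 1.01-fold higher in the non-pomca types than in melanotropes.

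Other processing genes differed less. Carboxypeptidase E, which removes basic residues from cut peptides, had a cpe level of 2.21 and 2.15 in melanotropes and of 3.30 and 2.93 in corticotropes. The proSAAS-type gene pcsk1nl was at 8.43 and 6.53 in melanotropes and at 12.6 and 12.7 in the non-pomca types. Of the 18 processing genes, 6 were counted against the non-pomca types with a median of 0.86 and 0.91 on the log2 scale, and 2 of these, pcsk2 and scg5, were called higher and 0 lower. Against corticotropes 9 were counted, of which pcsk2 was called higher and furinb lower. Over all genes counted, 3.18% were called higher and 3.71% lower against the non-pomca types, and 1.99% and 7.41% against corticotropes.

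Among 12 granins and granule proteins in the gene table, 6 were counted against the non-pomca types, with 1 called higher and 0 lower, where 3.18% and 3.71% of all genes counted were called. That gene was ptprnb, which encodes a receptor-type phosphatase-like protein of the granule membrane. Its level was 1.14 and 1.25 in melanotropes, 0.472 and 0.482 in corticotropes and 0.198 and 0.189 in the non-pomca types. Of 8 counted against corticotropes, 1 was called lower, where 7.41% of all genes counted were. This was slc18a2, the vesicular monoamine transporter, with 1 and 2 UMIs in melanotropes and levels of 0.590 and 0.669 in corticotropes. The granin scg3 was among the 10 genes with the highest melanotrope levels, at 47.0 and 37.8, but was higher still in the non-pomca types at 76.1 and 62.2.

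**Figure D1:**
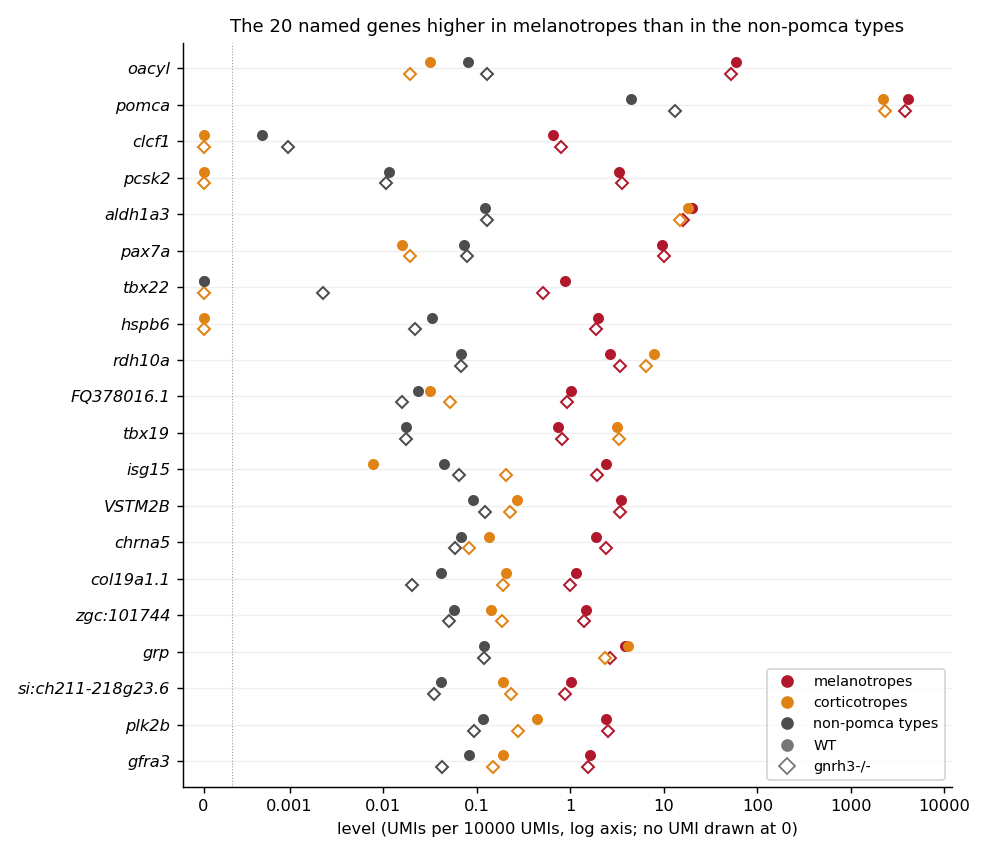
Levels of the 20 genes named as higher in melanotropes than in the non-pomca types (UMIs per 10000, log axis, genes without a UMI drawn at 0) in melanotropes, corticotropes and the non-pomca types, with circles for WT and open diamonds for gnrh3-/-. The gene oacyl lies at 59.8 and 52.2 in melanotropes and below 0.2 in the other groups, while aldh1a3 lies near 20.1 and 16.2 in melanotropes and near 17.95 and 14.9 in corticotropes.

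Several genes were high in both melanotropes and corticotropes. The retinaldehyde dehydrogenase gene aldh1a3, whose product makes retinoic acid, had a level of 20.1 and 16.2 in melanotropes, 17.95 and 14.9 in corticotropes and 0.124 and 0.130 in the non-pomca types. Its ratio between the 2 pomca types was 0.16 (0.07 to 0.26) and 0.11 (0.01 to 0.22) on the log2 scale. The retinol dehydrogenase gene rdh10a, which acts one step earlier, stood at 2.63 and 3.37 in melanotropes and at 7.82 and 6.50 in corticotropes, against 0.0681 and 0.0678 in the non-pomca types. Within the non-pomca types, isl1+ cells held rdh10a at 2.65 and 2.66, with intervals that overlapped those of melanotropes, and aldh1a3 at 1.93 and 0.843. With the 12 types weighted equally the log2 ratio to them was 3.24 and 3.48 for rdh10a, in place of 5.27 and 5.64, and 5.95 and 5.99 for aldh1a3, in place of 7.35 and 6.96. The gene cyp26b1, whose product breaks retinoic acid down, had no UMI in melanotropes of either library. The non-pomca types held cyp26b1 at 2.78 and 2.34, at least 67.1-fold and 52.4-fold more than melanotropes. Corticotropes did not share this absence, with at least 21.9-fold and 9.96-fold more cyp26b1 than melanotropes. The peptide gene grp, encoding gastrin-releasing peptide, was at 3.87 and 2.67 in melanotropes and 4.13 and 2.38 in corticotropes.

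Over the 14 types, the 5 genes whose levels followed pomca most closely included aldh1a3, rdh10a and tbx19. Pearson's r of log2(level + 0.1) was 0.922 in WT and 0.964 in gnrh3-/- for aldh1a3, 0.951 and 0.920 for rdh10a, and 0.8998 and 0.852 for tbx19. The other 2 were hsd11b2, with r of 0.901 and 0.880, and tmem132e, with 0.842 and 0.868. The types of a library share its depth and its free RNA, so these values are a description. The enzyme encoded by hsd11b2 inactivates cortisol. Its level was 1.19 and 1.14 in melanotropes but 13.4 and 11.6 in corticotropes, 11.3-fold and 10.1-fold higher.

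Transcription factors separated the 2 pomca types in both directions. The paired-box factor Pax7, which in the mouse sets melanotrope against corticotrope identity, is encoded here by pax7a (ENSDARG00000100398). The level of pax7a was 9.65 and 10.2 in melanotropes, 0.0157 and 0.0193 in corticotropes and 0.0726 and 0.0794 in the non-pomca types. It was seen in 97.6% of WT and 94.2% of gnrh3-/- melanotropes, and after reduction to 2000 UMIs in 81.1% and 81.2%, against 0.356% and 0.441% of corticotropes. Somatolactotropes alpha came next for pax7a, at 0.637 and 0.881. By contrast tbx19, the T-box factor of the POMC lineages, was lower in melanotropes than in corticotropes. Its level was 0.744 and 0.817 in melanotropes, 3.15 and 3.36 in corticotropes and 0.0175 and 0.0174 in the non-pomca types. Melanotropes took place 3 of 13 types for tbx19 in both libraries, below corticotropes and isl1+ cells, which had 1.76 and 1.62. Its log2 ratio to the non-pomca types was 5.41 and 5.55, and with the 12 types weighted equally that of tbx19 was 2.26 and 2.48.

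A second T-box gene, tbx22, was low but had few UMIs outside melanotropes, with a level of 0.868 in WT and 0.505 in gnrh3-/-. The highest other type held tbx22 at 0 in WT and 0.00760 in gnrh3-/-. The homeobox gene vax1 had a level of 6.02 and 4.42 in melanotropes and of 0 and 0.0386 in corticotropes, at least 255-fold higher in WT and 114.7-fold (6.84 on the log2 scale, 5.70 to 8.30) in gnrh3-/-. Somatolactotropes alpha had the highest vax1 level of all types, 14.2 and 11.8. The paralogous homeobox genes six3a and six3b were likewise higher than in corticotropes, six3a at 0.992 and 0.698 against 0.0629 and 0.0836, and six3b at 3.18 and 2.11 against 0.424 and 0.553. The highest six3a levels belonged to her6+ cells, at 6.49 and 3.49. The proneural factor gene ascl1a had levels of 3.101 and 2.27 in melanotropes and of 0.495 and 0.334 in corticotropes, while neurod1 was higher in corticotropes, at 8.50 and 4.46 against 5.03 and 3.01. The pituitary homeobox gene pitx3 did not separate them, with 6.35 and 5.17 in melanotropes and 6.42 and 5.09 in corticotropes. The orphan nuclear receptor gene nr4a2a had no UMI in melanotropes and stood at 0.621 and 0.360 in corticotropes.

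Of 45 pituitary transcription factors in the gene table, 17 were counted against the non-pomca types, with pax7a, six3a, sox2 and tbx19 called higher and nr5a1b and pou1f1 lower. The median of the 17 was 0.86 and 0.66 on the log2 scale, against -0.03 and -0.01 over all genes counted. Against corticotropes 16 were counted, of which ascl1a, pax7a and six3a were called higher and creb3l2 and tbx19 lower. Over all genes counted, 3.18% were called higher and 3.71% lower against the non-pomca types, and 1.99% and 7.41% against corticotropes.

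Dopamine receptor genes had opposite orders in the 2 pomca types. Of 10 in the gene table, drd2a and drd4-rs were the 2 counted. The D4-type gene drd4-rs had a level of 0.524 and 0.579 in melanotropes and of 5.27 and 6.02 in corticotropes, 10.06-fold and 10.402-fold higher. The ratio of melanotropes to corticotropes was 2.68 (1.84 to 3.62) and 2.39 (1.47 to 3.37) for drd2a and -3.33 (-3.84 to -2.86) and -3.38 (-3.88 to -2.92) for drd4-rs on the log2 scale.

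Most peptide and amine receptors fell under the count limit. None of 30 GABA and serotonin receptor genes was counted in any comparison, and of 63 peptide receptor genes 0 were counted against the non-pomca types and 1 against corticotropes. That gene was crhr1, the receptor of corticotropin-releasing hormone, at 0.221 and 0.104 in melanotropes (16 and 7 UMIs) and 0.857 and 0.720 in corticotropes. The thyrotropin-releasing hormone receptor gene trhra showed the reverse at low counts. It had 32 and 38 UMIs in melanotropes, a level of 0.441 and 0.564, and none in corticotropes, at least 18.7-fold and 29.3-fold. The highest other type, somatolactotropes alpha, held trhra at 0.00979 and 0.0226. The nicotinic acetylcholine receptor subunit gene chrna5 was at 1.90 and 2.44 in melanotropes, 0.134 and 0.0836 in corticotropes and 0.0681 and 0.0591 in the non-pomca types. The genes gfra3 and gfra1b, for coreceptors of the glial cell line-derived neurotrophic factor family, were higher than in corticotropes. The level of gfra3 was 1.64 and 1.56 against 0.189 and 0.148, and that of gfra1b was 0.565 and 0.668 against no UMI, at least 24.0-fold and 34.6-fold.

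The growth factor gene fgf8a had a level of 4.18 and 2.49 in melanotropes and of 0.0157 and 0.0386 in corticotropes, and FSH gonadotropes followed with 2.12 and 1.66. The cytokine gene clcf1 was low, at 0.662 and 0.802, and had no UMI in corticotropes, at least 28.1-fold and 41.6-fold below. The guidance factor gene slit3 was at 1.06 and 0.921 in melanotropes and at 0.0157 and 0.0129 in corticotropes. The small heat shock protein gene hspb6 had levels of 1.97 and 1.87 and no UMI in corticotropes, at least 83.6-fold and 97.0-fold. The interferon-inducible ubiquitin-like gene isg15 was at 2.38 and 1.95, against 0.00786 and 0.206 in corticotropes. The remaining genes named as higher than in the non-pomca types, by size of ratio, were FQ378016.1, VSTM2B, col19a1.1, zgc:101744, si:ch211-218g23.6 and plk2b. Their melanotrope levels ran from 0.876 for si:ch211-218g23.6 to 3.45 for VSTM2B.

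Of 51 cAMP signalling genes in the gene table, 13 were counted against the non-pomca types and 1, the regulator of G-protein signalling rgs5b, was called lower. Over all genes counted against the non-pomca types, 3.18% were called higher and 3.71% lower. Against corticotropes 13 were counted, with prkar1b called higher and rgs5b and rgs16 lower, where 1.99% and 7.41% of all genes counted were called. The level of prkar1b, a regulatory subunit of protein kinase A, was 0.689 and 0.594 in melanotropes, against 0.118 and 0.141 in corticotropes. For rgs5b the levels were 0.0413 and 0.193 against 4.24 and 4.08. Of 47 exocytosis genes, 15 were counted against the non-pomca types with a median of 0.70 and 0.51, and doc2b, a calcium sensor of vesicle fusion, was called higher at 0.510 and 0.653 against 0.0510 and 0.0494. Against corticotropes 21 were counted, of which syngr1a and sypb were called lower.

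Of 68 ion channel genes, 4 were counted against corticotropes, and 0 were called in either direction. Over all genes counted, 3.18% were called higher and 3.71% lower against the non-pomca types, and 1.99% and 7.41% against corticotropes. Of 26 steroid receptor and glucocorticoid target genes, 11 were counted against the non-pomca types, with hsd11b2 called higher and esr1 and nfkbiaa lower. Against corticotropes 10 were counted, with hsd11b2 and thraa called lower. The glucocorticoid receptor gene nr3c1 had levels of 0.951 and 0.832 in melanotropes and of 2.69 and 1.19 in corticotropes. Of 10 neurohypophysial and glial genes, 3 were counted against the non-pomca types, with the neuronal RNA-binding gene elavl3 higher and plp1b lower. The level of elavl3 was 0.648 and 0.609 in melanotropes and 0.0445 and 0.0358 in the non-pomca types.

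Melanotropes were more often below corticotropes than above them. Of 2821 genes counted, 56 were at least 4-fold higher in melanotropes (1.99%) and 209 at least 4-fold lower (7.41%). The median gene differed by -0.46 in WT and -0.42 in gnrh3-/- on the log2 scale, and pomca took a larger share of the UMIs in melanotropes than in corticotropes. With hormone genes left out of the total the medians over the genes counted in each library were -0.06 and -0.10, and the numbers called became 106 higher and 186 lower, and with TMM scaling 70 and 155.

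The greatest difference downward was at si:dkey-14d8.6, a gene without a described product, with a level of 0.0965 and 0.119 in melanotropes and of 161 and 88.1 in corticotropes. The gene gad2, which encodes a glutamate decarboxylase that makes GABA, had 0 and 1 UMI in melanotropes and stood at 7.84 and 3.21 in corticotropes. The Wnt antagonist gene dkk1b had no UMI in melanotropes and was at 2.80 and 4.04 in corticotropes, at least 67.7-fold and 90.6-fold higher. The parvalbumin gene pvalb9 was at 0.0276 and 0.104 against 9.63 and 9.80. The small GTPase gene rasd1, which glucocorticoids induce in mammals, was at 0.345 and 0.579 against 16.4 and 22.2, and the thioredoxin gene txn at 0.220 and 0.134 against 9.71 and 7.07. The other genes named by size of ratio were si:dkeyp-118a3.2, gdpd3b, myh9a, FO704758.1, si:dkey-248g15.3 and fam43a, with corticotrope levels from 1.96 for si:dkey-248g15.3 to 7.95 for si:dkeyp-118a3.2. Upward, the genes named beside those already described were tmeff2a at 1.12 and 0.787 and slc4a4a, a sodium bicarbonate cotransporter gene, at 1.25 and 0.772.

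**Figure D2:**
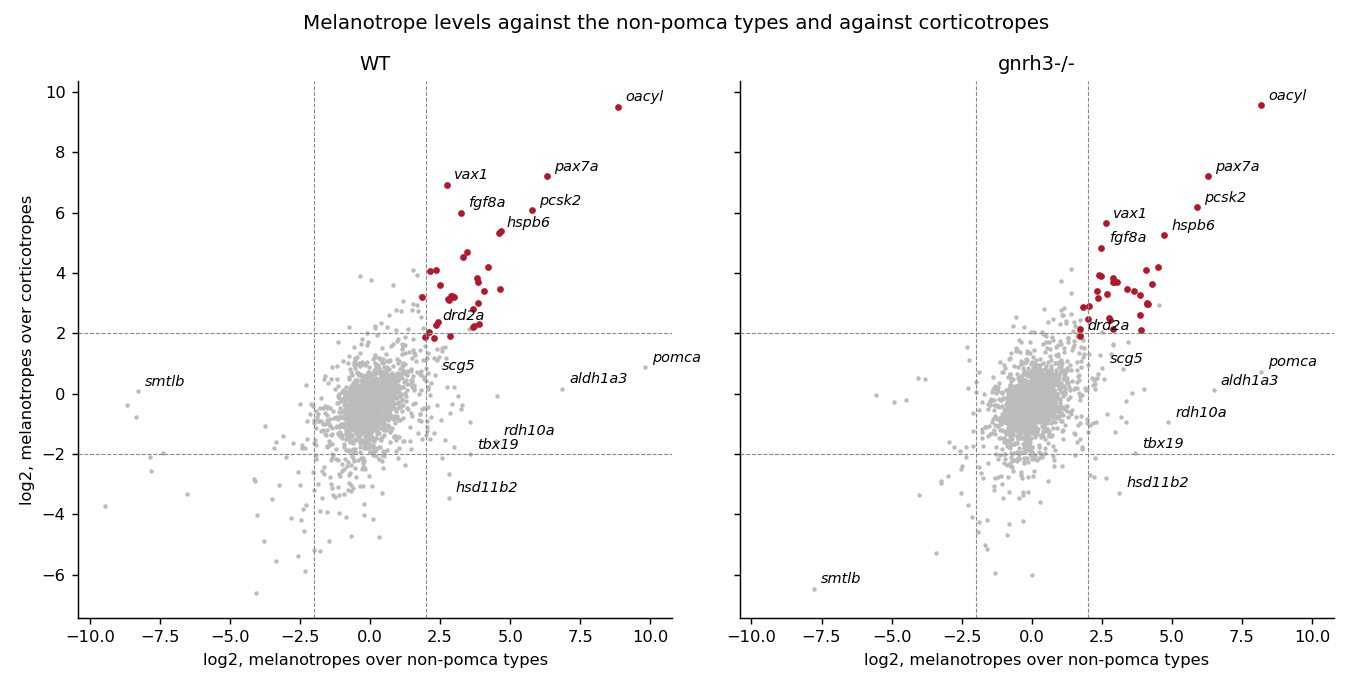
Log2 ratio of melanotropes to the non-pomca types (horizontal) and to corticotropes (vertical) for the 2268 genes counted in both comparisons, WT and gnrh3-/- in separate panels, with 0.05 added to each level and dashed lines at a 4-fold difference. The 34 genes at least 4-fold above both in both libraries are in red, with oacyl, pax7a and pcsk2 farthest toward the upper right and pomca near the right edge but below the upper dashed line.

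Of the 79 genes above the non-pomca types and the 56 above corticotropes, 34 were in both groups, 43.0% of the first and 60.7% of the second. They included oacyl, pax7a, pcsk2, drd2a, tbx22, vax1, six3a, fgf8a, slit3, gfra1b and gfra3. The type that came next was tallied after the values were seen. The 79 genes were picked as low in a pool without corticotropes, and the 56 as low in corticotropes. The shares below thus follow in part from how the genes were picked, and they test nothing. Corticotropes were the highest other type in both libraries for 24 of the 79 genes (30.4%), against 6.13% of the 2481 counted. Somatolactotropes alpha were so for 12 of the 79 (15.2%), against 8.59%. Of the 56 genes above corticotropes, somatolactotropes alpha came next for 15 (26.8%), against 7.34% of the 2821 counted. Melanotropes exceeded each of the 12 other types shown for 43 of the 79 genes (54.4%) and 35 of the 56 (62.5%), against 2.50% of the 2481 and 2.16% of the 2821 counted.

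**Figure D3:**
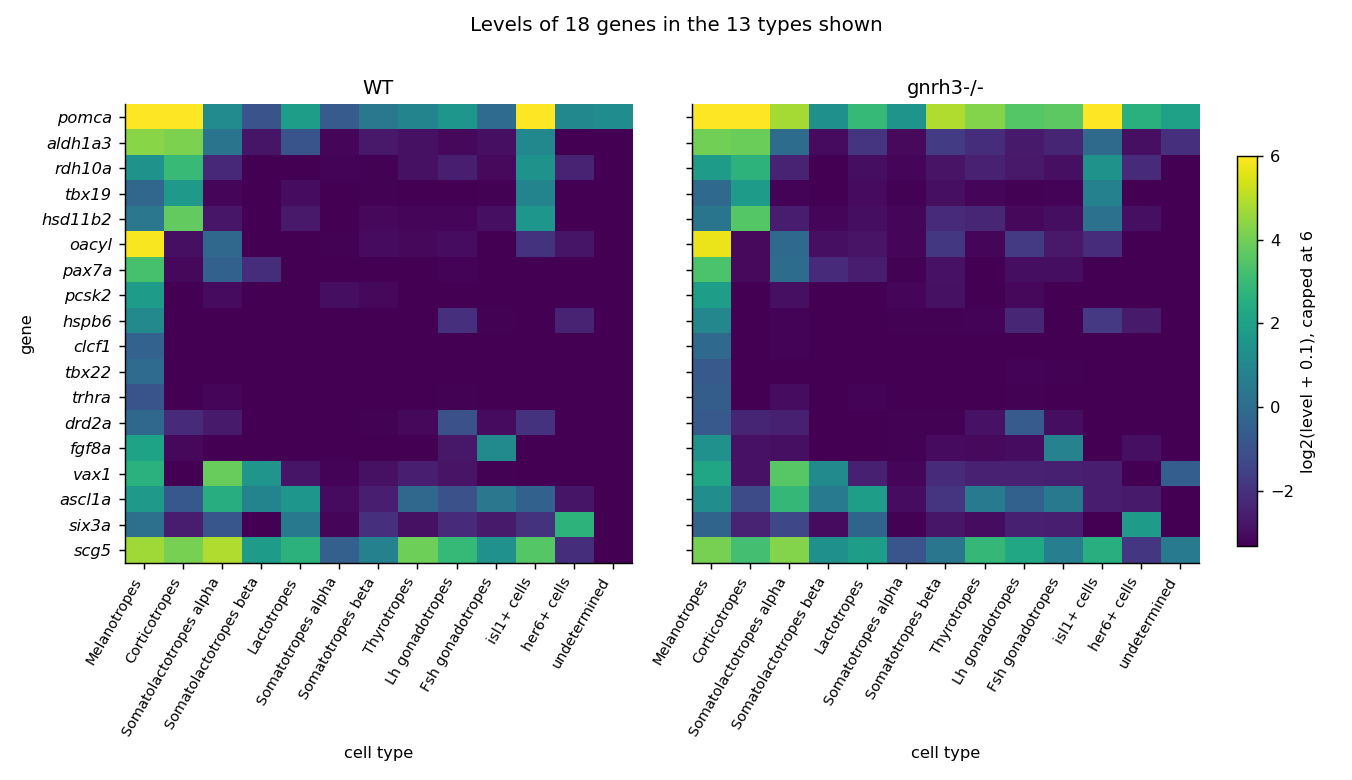
Heatmap of log2(level + 0.1), capped at 6, for 18 genes in 13 cell types, WT and gnrh3-/- in separate panels. Melanotropes share aldh1a3 with corticotropes, and rdh10a with corticotropes and isl1+ cells (2.65 and 2.66 in isl1+ cells). They share vax1 with somatolactotropes alpha (14.2 and 11.8), and hold oacyl and pcsk2 at levels that no other type reached.

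The genes lower than in the non-pomca types were led by products of other pituitary cells. Of 9 hormone genes of other types, 9 were counted and 8 were called lower, where 3.71% of all genes counted were. The growth hormone family gene smtlb had a level of 0.413 and 0.817 in melanotropes and of 145.6 and 189.6 in the non-pomca types, and fshb one of 0.193 and 0.653 against 46.1 and 49.9. The gene smtla had no UMI in melanotropes, at least 104-fold and 57.9-fold below. Other genes low in melanotropes were ecrg4a (0.0138 and 0.0148 against 4.82 and 6.84), the transferrin gene tfa (0.0689 and 0.252 against 20.3 and 16.9), the midkine gene mdka (0.0276 and 0.0742 against 3.93 and 5.12) and the complement factor D gene cfd (0 and 1 UMI against 3.29 and 3.08).

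Genes of protein folding in the endoplasmic reticulum were mostly lower in melanotropes than in the non-pomca types. Of 36 in the gene table, 30 were counted against the non-pomca types, with 0 called higher and ddit3 and dnajb11 lower. Their median was -1.21 in WT and -0.97 in gnrh3-/- on the log2 scale, against -0.03 and -0.01 over all genes counted. The disulphide isomerase gene pdia3 was at 1.87 and 2.20 in melanotropes and at 10.9 and 8.77 in the non-pomca types. The chaperone gene hspa5 was at 1.23 and 1.396 against 4.60 and 5.24, and xbp1, a factor of the unfolded protein response, at 2.21 and 2.94 against 6.91 and 7.01. Against corticotropes 27 were counted with a median of -0.41 and -0.05, and 0 were called. Over all genes counted, 3.18% were called higher and 3.71% lower against the non-pomca types, and 1.99% and 7.41% against corticotropes.

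Melanotropes varied among themselves. Variation was ranked by the ratio of variance to mean, which tends to rise with the level of a gene. Its order therefore does not rank genes by relative variation. In cells reduced to 2000 UMIs, the ratio of variance to mean was highest for pomca, at 42.0 in WT and 44.0 in gnrh3-/-. Next came zgc:158463, a gene without a described product, at 22.6 and 24.2. It was second only to pomca in level, with 390.4 and 467.8. The cytokine signalling inhibitor gene socs3a followed with 5.36 and 3.94. Its level was 16.1 and 9.06 in melanotropes, against 0.880 and 1.22 in corticotropes, and single melanotropes reached 112 and 88.5 around medians of 9.31 and 5.39. Somatolactotropes alpha exceeded melanotropes for socs3a, at 18.1 and 21.3. The immediate early gene fosab was next, with 4.72 and 3.80. It had single-cell medians of 27.4 and 20.6 and maxima of 121 and 105.

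The rest of the 10 genes with the highest ratio of variance to mean were glula, egr4, h1-10, hsp70.3, hsp90aa1.2 and zgc:122979. The heat shock gene hsp90aa1.2 was at 8.04 and 10.1 in melanotropes and at 38.0 and 29.0 in corticotropes. Such genes can also respond to the enzymatic dissociation of tissue, and its part was not tested. Of 22 immediate early genes in the gene table, 19 were counted against the non-pomca types, with 0 called higher and atf3 lower. Against corticotropes 20 were counted, with dusp1, egr2a and egr3 called lower. Of all genes counted, 3.71% were called lower than in the non-pomca types and 7.41% lower than in corticotropes.

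**Figure D4:**
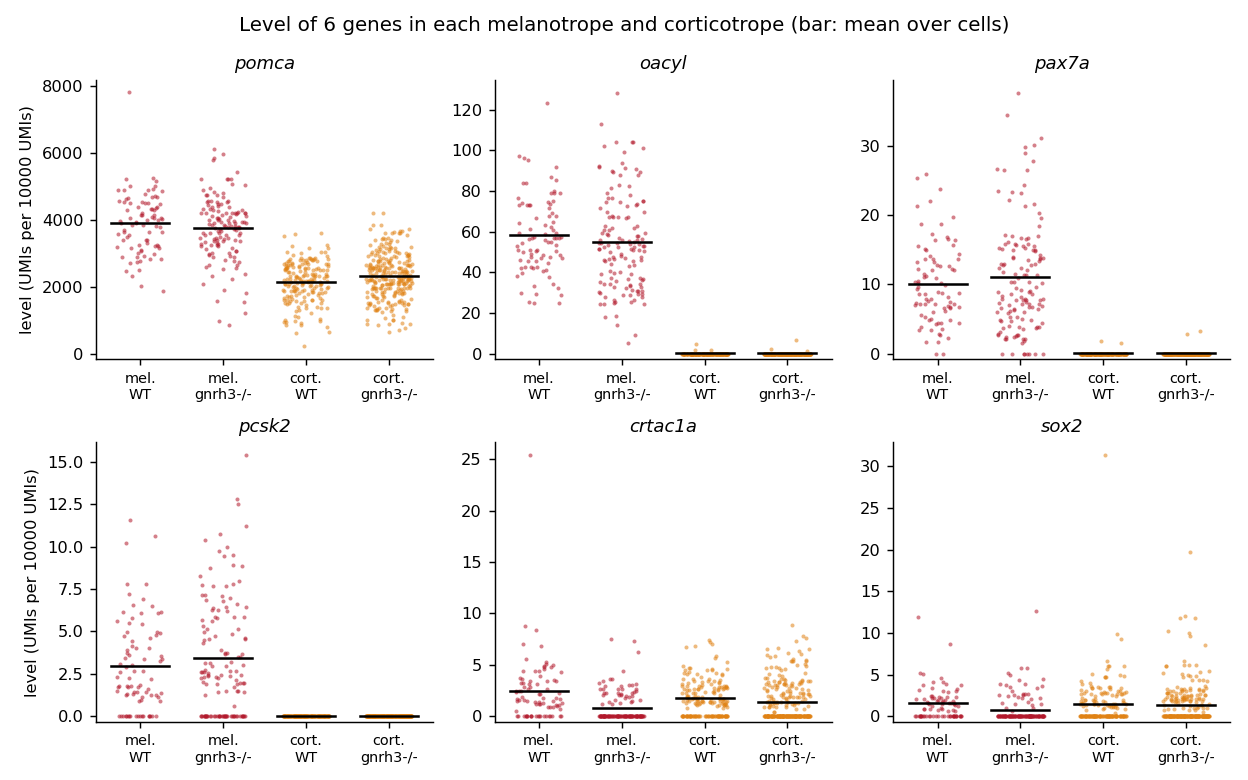
Levels of pomca, oacyl, pax7a, pcsk2, crtac1a and sox2 in single cells (UMIs per 10000 UMIs of the cell), each point a melanotrope or corticotrope of 1 library and each bar the mean over cells. For oacyl and pax7a the median melanotrope lies above every corticotrope of its library, while pomca overlaps more widely. Single cells overlap for these genes too. The lowest gnrh3-/- melanotrope has oacyl at 5.40, against a corticotrope maximum of 6.66. Some melanotropes of both libraries lie at 0 for pax7a, where corticotropes reach 1.79 in WT and 3.21 in gnrh3-/-. At full depth, crtac1a and sox2 are seen in a smaller share of gnrh3-/- than WT melanotropes (29.2% against 75.3% for crtac1a). Corticotropes also had lower shares in gnrh3-/-, at 45.3% against 64.0% for crtac1a and 39.4% against 45.2% for sox2. These shares are not corrected for depth, and the median melanotrope held 8100 UMIs in WT and 4434 in gnrh3-/-. Shares at equal depth are given in the text.

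The comparison of genotypes asks what melanotropes of fish without gnrh3 express differently, with 1 library each. Of the genes that mark the type, pomca, pax7a, pcsk2 and oacyl differed little. The label was given to clusters of both libraries together, so likeness in the genes that shaped them is in part set by the label. The gnrh3-/- to WT ratio was -0.08 (-0.09 to -0.07) on the log2 scale for pomca, 0.08 (-0.08 to 0.23) for pax7a, 0.10 (-0.17 to 0.36) for pcsk2 and -0.19 (-0.26 to -0.13) for oacyl. For drd2a it was -0.59 (-1.25 to 0.06). Point estimates of other marking genes went in both directions, such as tbx22 at -0.78, fgf8a at -0.74, gfra1b at 0.24 and clcf1 at 0.28. The estimate for clcf1 rested on 48 and 54 UMIs. Its level in each library lay within the counting interval of the other, so its direction is not settled. Of 2654 genes counted, 48 were at least 2-fold higher in gnrh3-/- melanotropes (1.81%) and 51 at least 2-fold lower (1.92%). The median gene was at -0.05 and the middle 90% from -0.76 to 0.69. TMM scaling turned these numbers to 62 higher and 37 lower.

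Of the 10 genes named as higher in gnrh3-/-, several were hormone genes of other cell types, led by prl and gh1. The level of prl was 0.606 in WT and 40.3 in gnrh3-/- melanotropes, and that of gh1 was 2.94 and 99.5. In gnrh3-/-, 3 cells held 92.1% of the prl and 4 cells held 90.1% of the gh1 of melanotropes. Without the 7 cells over 5% foreign hormone, of which Scrublet called 1 a doublet, the gnrh3-/- levels were 3.30 for prl and 10.5 for gh1. The levels of tshba and cga were spread more widely. The level went from 0.538 to 7.69 for tshba and from 1.28 to 15.3 for cga. Without the 7 cells the gnrh3-/- levels were 6.83 and 14.2. When the cell of each library with the most cga UMIs was left out, the log2 ratio of cga went from 3.57 to 3.06. The median melanotrope still held few of these UMIs, 0 in WT and 1 in gnrh3-/- for tshba, and 1 in each library for cga.

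Free RNA in the droplets held the same transcripts. In droplets of 10 to 100 UMIs the levels in WT and gnrh3-/- were 163 and 245 for prl, 550 and 693 for gh1, 105 and 270 for tshba, and 182 and 205 for cga. The share of melanotrope UMIs taken as free RNA was 0.372% in WT and 1.70% in gnrh3-/-. This share was the smallest that a foreign hormone gene allowed, so it was set by the same genes it is used on. In WT it was set by prl, which the subtraction brought to 0, so prl had no ratio. With the share subtracted, the genotype ratio on the log2 scale went from 5.08 to 6.64 for gh1. It went from 3.84 to 4.43 for tshba and from 3.57 to 4.30 for cga. The part of free RNA in the genotype difference was not tested. Corticotropes showed the same direction, with prl at 2.52 and 40.4 and gh1 at 39.4 and 116. Of 9 other hormone genes in the gene table, 8 were counted between genotypes and 7 were called higher in gnrh3-/-, where 1.81% of all genes counted were. The remaining genes named as higher were dio2, nppal, cox8b, lhb, CGA and grn1, of which dio2, nppal and grn1 had 55.6%, 59.5% and 77.6% of their gnrh3-/- UMIs in 1 cell. The rise of lhb also leaned on single cells. Without the cell of each library with the most lhb UMIs, its log2 ratio went from 2.93 to 1.51.

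With the 7 cells left out, a choice made after the values were seen, 2645 genes were counted, of which 48 were at least 2-fold higher and 58 at least 2-fold lower. Beyond hormones and grn1, the gene with the highest lower end of the counting interval was then zgc:122979, at 1.67 in WT and 6.21 in gnrh3-/-, or 1.90 (1.60 to 2.20) on the log2 scale. After reduction to 2000 UMIs, zgc:122979 was seen in 19.6% of WT and 38.6% of gnrh3-/- melanotropes, against 6.67% and 12.1% of corticotropes. Others were spry4, an inhibitor of receptor tyrosine kinase signalling, at 0.0827 and 0.515 on only 6 and 32 UMIs. The activity-dependent factor gene npas4a was at 1.42 and 3.54 (103 and 220 UMIs). The stress-responsive factor gene atf3 was at 0.221 and 0.981 (16 and 61 UMIs). The level of lmo2 was 0.262 and 0.916 (19 and 57 UMIs), and that of bhlha15 was 0.345 and 0.981 (25 and 61 UMIs). Of 17 immediate early genes counted between genotypes with all cells, 4 were called higher (atf3, egr2a, fosl2 and npas4a) and 0 lower. Over all genes counted, 1.81% were called higher and 1.92% lower. The list median was 0.17 against -0.05 over all genes. The melanotrope levels of egr2a (0.165 and 0.342) and fosl2 (0.207 and 0.475) were low. In corticotropes atf3 (1.86 and 0.694), egr2a (3.85 and 2.39) and fosl2 (2.30 and 0.720) were instead lower in gnrh3-/-, and npas4a (1.38 and 1.97) was higher.

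No hormone gene was among those named as lower in gnrh3-/- melanotropes. The level of enc1 was 0.896 in WT and 0.178 in gnrh3-/-, -2.33 (-3.35 to -1.43) on the log2 scale, on 65 and 12 UMIs. The secreted matrix protein gene crtac1a went from 2.12 to 0.772, -1.46 (-1.94 to -0.997). At 2000 UMIs crtac1a was seen in 34.2% of WT and 14.6% of gnrh3-/- melanotropes, against 29.9% and 23.0% of corticotropes. The progenitor factor gene sox2 went from 1.50 to 0.624, -1.27 (-1.82 to -0.74), and was seen at 2000 UMIs in 24.7% and 12.4% of melanotropes, against 21.2% and 20.5% of corticotropes. The cytokine signalling inhibitor gene cish went from 1.13 to 0.356, and the Notch ligand gene dll4 from 0.538 to 0.134. The other genes named by ratio were LECT2, nab1a, clic4, nrip1b and mgll, with WT levels from 0.427 for mgll to 0.786 for LECT2. The 2 libraries also differed in depth per melanotrope, with medians of 8100 and 4434 UMIs.

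Besides the hormone and immediate early genes above, few lists held a gene at least 2-fold apart between genotypes. Over all genes counted, 1.81% were called higher and 1.92% lower. At these shares lists of this size would hold few called genes, so the small numbers set no list apart. Of 14 transcription factors counted, sox2 was called lower and 0 higher. Of 18 exocytosis genes counted, rims2a was called lower, at 0.551 and 0.223. No gene was called among 7 processing genes, 6 granule genes, 12 cAMP genes, 8 steroid genes, 5 ion channels, 27 genes of protein folding, 2 dopamine receptors, 2 neurohypophysial and glial genes and 1 peptide receptor counted. The processing gene scg5 went from 25.6 to 16.7, -0.61 (-0.72 to -0.50). This fall was not particular to melanotropes. In WT and gnrh3-/-, scg5 was at 16.7 and 9.28 in corticotropes and at 5.13 and 2.86 in the non-pomca types.

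**Figure D5:**
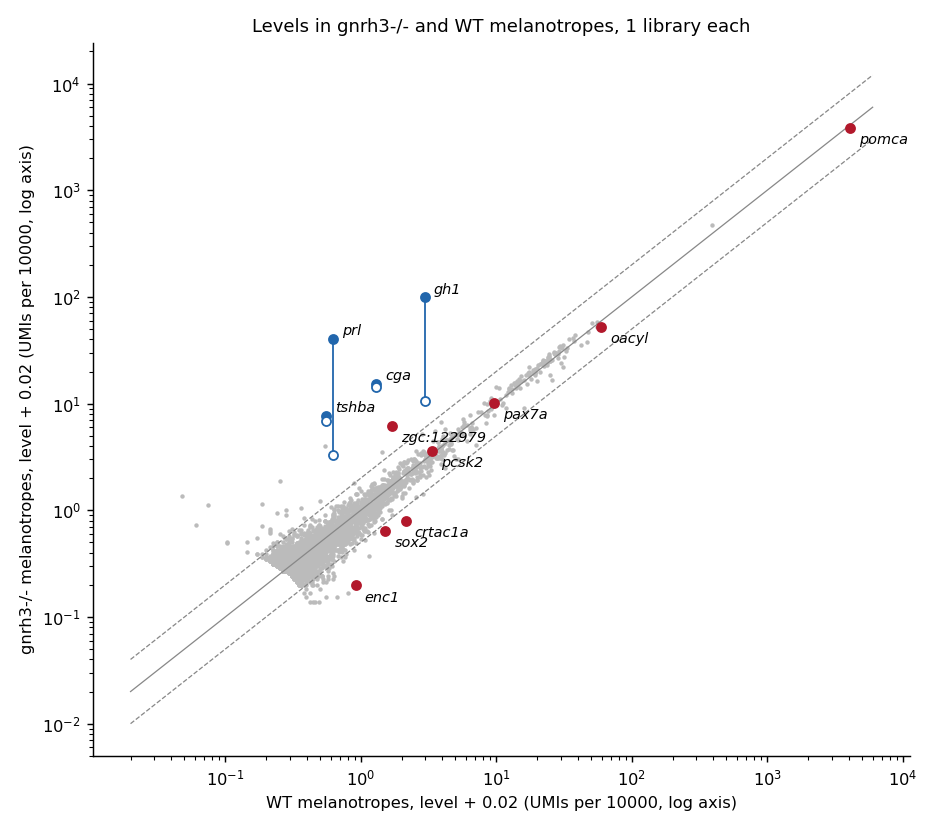
Levels of 2654 genes in WT (horizontal) and gnrh3-/- melanotropes (vertical) on log axes with 0.02 added, and lines for equal levels and a 2-fold difference. In blue, gh1, prl, tshba and cga lie far above the line with all cells and lower without the 7 cells (open points), and the named genes in red include pomca and oacyl near the line, zgc:122979 above it and enc1, crtac1a and sox2 below.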

How the data were processed

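Pituitary cells of WT and gnrh3-/- fish, 1 library each, were analysed from the deposited UMI counts, which the authors made with Cell Ranger 6.0.2 on GRCz11 (protein-coding genes of Ensembl) and left without normalization. Cells and cell types were those that the authors kept and annotated with Seurat 4, after limits on UMIs, genes and mitochondrial share, integration of the libraries and clustering. The counts of 25432 genes were summed per type and library, divided by the total and multiplied by 10000. In cells, 86.5% and 85.6% of the 25405369 and 38809315 UMIs of the 2 libraries were found.

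Intervals of levels were exact Poisson, of shares exact (Clopper-Pearson) binomial, and of log2 ratios from the exact binomial split of 2 sums, all at 95%. UMIs are molecules, but pooled fish, free RNA and dissociation are not covered. A group without a UMI was set to 3 UMIs per library for "at least" folds. Shares at 2000 UMIs are the exact expectation of drawing 2000 UMIs from each cell, averaged over cells with at least 2000, which left out 1 WT and 2 gnrh3-/- melanotropes and 3 and 16 corticotropes. Variance was taken from 1 draw of 2000. Doublets were called by Scrublet (scanpy 1.11.5, expected rate 0.05), which marked 7 WT and 163 gnrh3-/- cells, among them 0 and 1 melanotropes, and were kept except in an alternative. Free RNA was estimated from droplets of 10 to 100 UMIs as the smallest share that a foreign hormone gene allowed, leaving out smtla and CGA. TMM factors came from edgeR 4.0.16 in R 4.3.3. Software was Python 3.11.15 with numpy 2.4.6, scipy 1.17.1, pandas 2.3.3 and matplotlib 3.10.9. Scripts were tested on simulated data.

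Named genes were ranked by the end of the 95% interval nearest to 0: 20 higher and 10 lower against the non-pomca types, 12 and 12 against corticotropes, 10 and 10 between genotypes. They also included the 10 highest levels, the 5 genes most like pomca, and members of 18 gene lists. A further 10 had the highest ratio of variance to mean (mean of at least 0.2 UMIs). Cell type, genes and lists were chosen with earlier results of these data known. Values of 1 of the 14 types, whose cells are in the pooled non-pomca types, and of some ion channel genes are not reported singly. Alternatives changed scaling, filter, weighting of types, cell sets and free RNA.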

Additional observations from a re-analysis of the deposited data

Results flagged for a closer look

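Barcodes outside the deposited cells with at least 500 UMIs were searched for melanotropes, using the lowest pomca and oacyl levels of an annotated melanotrope in the same library. In gnrh3-/-, 25 of 537 such barcodes reached both, against 3 of 339 in WT. The limits were lower in gnrh3-/- (845 for pomca and 5.40 for oacyl) than in WT (1877 and 24.7), so the 2 counts are not alike. Of the 25, 23 had under 500 genes, 11 were over 10% mitochondrial, and the median was 1211 UMIs.

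For 8 named genes the ratio of melanotropes to corticotropes had opposite signs in the 2 libraries. The difference between the libraries was not tested, with 1 library each. On the log2 scale, WT before gnrh3-/-, the ratio was -2.14 and 0.52 for cga, -2.67 and 0.49 for tshba, and -4.71 and 1.66 for dio2, 3 genes of other pituitary cells that were also higher in gnrh3-/- than in WT melanotropes. For crtac1a it was 0.32 and -0.87, and for insm1a, an endocrine zinc finger factor, 0.40 and -0.53. For p4hb, a disulphide isomerase gene, it was -0.39 and 0.47. The smallest were scg3, at 0.18 and -0.11, and zgc:158463, at -0.26 and 0.25. Taking the hormone genes out of the total shifts all ratios of a library alike. The median over the genes counted in each library then went from -0.45 to -0.06 in WT and from -0.41 to -0.10 in gnrh3-/-. The opposite signs of scg3 and zgc:158463 thus depend on the scaling.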

How the results depend on the processing

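The alternatives were run on the ratios of genes named by ratio, and not on those of the other named genes or of list members. None of the ratios run changed sign, and ratios to a group without a UMI were left out of them. The median ratio between genotypes went from -0.05 to 0.03 with TMM scaling. With means of per-cell levels, 139 genes were lower than in the non-pomca types, 82 were lower in gnrh3-/-, and pomca was at 3888 and 3746. With hormone genes out of the total, 106 genes were higher than in corticotropes, 114 were higher and 177 lower in gnrh3-/-, pomca was at 6816 and 6381 and drd2a at 1.28 and 0.841. That total let 3642, 3811 and 4147 genes pass the filter in the 3 comparisons. With the 12 types weighted equally, 208 genes were lower than in the non-pomca types. That weighting moved 38 of 54 named ratios beyond their counting interval. A filter at a mean level of 1 counted 647, 770 and 665 genes and left 21 higher and 30 lower against the non-pomca types, 14 and 83 against corticotropes, and 9 and 3 between genotypes. In gnrh3-/-, pomca was at 3851 without doublets, 3954 without cells of over 5% foreign hormone and 3887 with free RNA subtracted. No other count of genes moved by over 1.5 times. With TMM scaling, 62 genes were higher and 37 lower in gnrh3-/-, and 71 higher and 116 lower than in the non-pomca types. Genotype ratios were also taken from melanotropes with at least 2000 UMIs, as means of per-cell levels (chosen after the data were seen). This left 16 of the 20 named genotype ratios within their counting interval. Reducing each cell to 2000 UMIs does not change its expected level, so the setting cannot show an effect of depth. No replicate could be left out and no paired analysis was possible because each genotype had 1 library.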
